A study of Saccharomyces cerevisiae with 6 samples.

Results

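Nucleosomes in budding yeast were compared between 0 h and 3 h after histone H3 synthesis was switched off, and the changes were described by where each nucleosome lay and what it looked like at 0 h. The comparison holds 4 of the 6 libraries of the series: H3 shutoff at 0 h and at 3 h, each from cultures 1 and 2. The H3 shutoff strain (DCB200.1) lacks HHT1, 1 of its 2 histone H3 genes, and carries the other, HHT2, behind the GAL1 promoter, which is active in galactose and repressed in dextrose. Wildtype (YEF473A) has both H3 genes under their own promoters. All cultures grew in galactose to mid-log phase and were moved to dextrose, so the change of sugar is shared by both strains. The 0 h cells were fixed right after the move and the 3 h cells came from the same culture. H3 shutoff cells in dextrose stop dividing with large buds, so depletion and arrest cannot be told apart at 3 h. The wildtype pair (1 library at each time) served as a reference line and has no replicate error.

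A nucleosome is a length of DNA wrapped around a core of histones that includes H3, and its midpoint on the DNA is called the dyad. Micrococcal nuclease (MNase) cuts the linker DNA between nucleosomes, and the protected pieces are sequenced, so the centre of each read marks a dyad. In yeast, nucleosomes form regular arrays that start beside nucleosome-depleted stretches at promoters, and the chromatin near chromosome ends is packed differently from the rest. A nucleosome held at one place in nearly all cells gives a narrow pile of read centres, and one that differs from cell to cell gives a broad pile, called fuzzy.

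The members were all nucleosomes with more than 5 read centres within 50 bp in a 0 h list, 54276 in culture 1 and 52459 in culture 2. To keep counting error in one library from setting both the class and the change, class and fixed centre for culture 1 were taken from the 0 h list of culture 2, and the other way around. Occupancy change is log2 of the read centres within 50 bp at 3 h over those at 0 h, with 1 read added to each. Fuzziness is the s.d. of the read centres within 73 bp of the fixed centre, for which read centres spread evenly would give 42.4 bp. Shift is the distance between the centres called at 0 h and 3 h. Each library held 5000001 reads, so occupancy is relative: a loss spread evenly over the genome would not show. Over all nucleosomes the median occupancy change was -0.17 in culture 1 and -0.16 in culture 2, and -0.02 and -0.05 in wildtype on the lists of replicates 1 and 2. Changes below are to be read against those medians.

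The libraries differed in more than the classes. In the deposited lists, H3 shutoff nucleosomes had a median s.d. of 36.4 and 35.1 bp at 0 h. The corresponding 3 h medians were 38.1 and 40.04 bp, and those of wildtype were 31.0 bp at 0 h and 30.5 bp at 3 h, so H3 shutoff nucleosomes were fuzzier than those of wildtype at 0 h already. The authors extended reads to 170 bp (culture 1) or 172 bp (culture 2) before H3 depletion, to 158 or 165 bp after it, and to 174 bp in wildtype. Distinct intervals made up 52.7% and 51.9% of reads at 0 h and 59.5% and 64.5% at 3 h, against 47.8% and 46.2% in wildtype. Read length and the share of repeated intervals therefore moved with time in H3 shutoff, and their part in the changes was not tested beyond the counts with 1 read per interval given below. The paper also reports that chromatin was more easily digested by MNase after H3 depletion and that the MNase concentration was adjusted. The part of digestion in the changes was not tested. With 2 cultures, an exact two-sided permutation test over 2 against 2 libraries that ignores the pairing by culture cannot go below 0.333. One that keeps the pairing has fewer arrangements and cannot go lower. Class values are therefore given per culture with their SD and without a p-value.

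The nucleosomes that were deepest at 0 h lost read centres, and the shallowest as a class did not. In the deepest quintile (more than 90 read centres in the list used for culture 1 and more than 86 in that for culture 2), the median count fell from 107 to 70 in culture 1 and from 108 to 74 in culture 2. In the shallowest quintile (at most 34 and 32), it went from 26 to 29 and from 26 to 32. The change moved down through the quintiles in both cultures, apart from the first step in culture 1. From shallowest to deepest, the median log2 changes were 0.07, 0.13, -0.03, -0.26 and -0.62 in culture 1 and 0.30, 0.00, -0.16, -0.34 and -0.53 in culture 2. The deepest quintile minus the shallowest was -0.68 and -0.84, or -0.76 ± 0.11 (SD, n = 2 cultures). The same difference was 0.23 and 0.02 in wildtype on the 2 lists. Between the replicates at one time, classed by the wildtype list, it was 0.22 at 0 h and 0.09 at 3 h. Both cultures thus lay far below the wildtype pair and below the gaps between replicates.

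Nucleosomes were also compared by how sharp they were at 0 h, and the sharp ones lost most. In the sharpest quintile the median log2 change was -0.60 and -0.52, and 82.9% and 80.1% of nucleosomes had fewer read centres at 3 h. In the fuzziest quintile it was 0.19 and 0.14, and 37.0% and 39.2% had fewer. The quintiles between lay in order in both cultures, at -0.36, -0.13 and 0.06 in culture 1 and -0.30, -0.12 and 0.00 in culture 2. Sharpest minus fuzziest was -0.79 and -0.66, or -0.72 ± 0.10 (SD, n = 2 cultures), against 0.17 and 0.16 in wildtype and 0.01 and 0.08 between replicates at 0 h and 3 h.

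**Figure D1:**
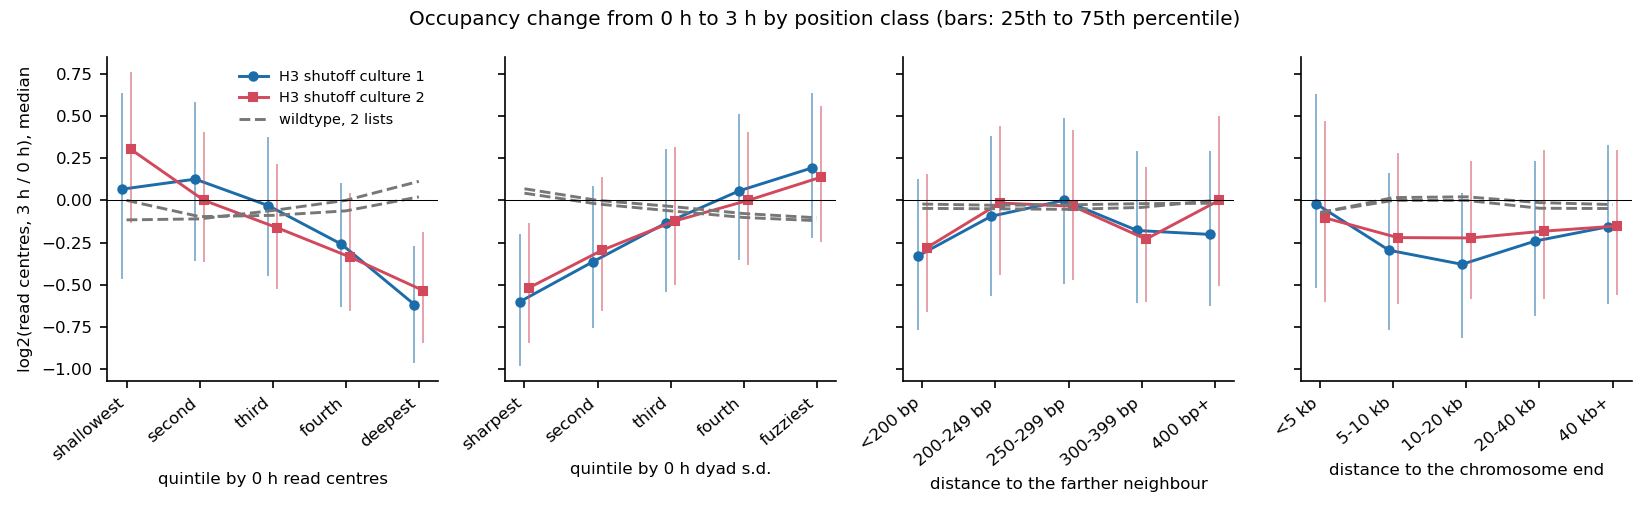
Median log2 ratio of read centres at 3 h over 0 h (y axis) in each class of the 0 h nucleosomes (x axis) by depth, fuzziness, distance to the farther neighbour and distance to the chromosome end. Points are the 2 H3 shutoff cultures, vertical bars the 25th to 75th percentile over nucleosomes, and dashed lines the wildtype pair on the 2 lists. The deepest quintile lies at -0.62 and -0.53 and the sharpest at -0.60 and -0.52, while wildtype stays between -0.12 and 0.11 in every class.

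Deep nucleosomes tend to be sharp: 5023 of the 10357 deepest nucleosomes in culture 1 and 5689 of 10600 in culture 2 were also in the sharpest quintile. Each property still went with the change inside classes of the other. Within the 5 depth quintiles, sharpest minus fuzziest ran from -0.72 to -0.39 in culture 1 and from -0.37 to -0.21 in culture 2. Within the 5 fuzziness quintiles, deepest minus shallowest ran from -0.56 to -0.34 and from -0.76 to -0.57. The lowest median of the 25 combined classes was the deepest and sharpest one in both cultures, at -0.76 and -0.63. The highest was the shallowest and fuzziest, at 0.34 and 0.35. By those ranges sharpness spread the values more in culture 1 and depth in culture 2, a difference between cultures that was not tested. Sharper nucleosomes of the shallowest quintile differed in sign between the cultures. From the sharpest to the third fuzziness quintile they stood at -0.32, -0.25 and -0.07 in culture 1 and at 0.13, 0.23 and 0.26 in culture 2.

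The piles of read centres themselves became broader, and the narrow ones broadened most. In the sharpest quintile the median s.d. went from 23.1 to 31.8 bp in culture 1 and from 21.4 to 30.9 bp in culture 2. In the fuzziest quintile it went from 38.2 to 39.4 bp and from 38.4 to 39.7 bp, where little room was left below the 42.4 bp of an even spread. The median rise per nucleosome fell in order through the quintiles, 8.47, 6.82, 4.48, 2.56 and 1.14 bp in culture 1 and 9.38, 7.13, 4.84, 2.98 and 1.30 bp in culture 2. Sharpest minus fuzziest was 7.70 ± 0.54 bp (SD, n = 2 cultures), against 0.32 and 0.34 bp in wildtype and -2.59 and -0.97 bp between replicates. In H3 shutoff 91.4% and 92.7% of the sharpest nucleosomes were broader at 3 h, and in wildtype 48.6% and 50.0%.

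By depth, the median rise was 2.04 and 2.93 bp in the shallowest quintile and 8.04 and 7.63 bp in the deepest, a difference of 5.35 ± 0.92 bp (SD, n = 2 cultures) that was -0.07 and 0.06 bp in wildtype. Unlike occupancy, this difference was not kept within fuzziness classes in both cultures. In culture 1 deepest minus shallowest ran from 0.91 to 6.43 bp within the 5 fuzziness quintiles, and in culture 2 from -0.98 to 4.51 bp, above 0 in the 2 sharpest quintiles and below 0 in the other 3. By sharpness, in contrast, the sharpest broadened more than the fuzziest in every depth quintile of both cultures, by 2.20 to 9.06 bp.

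**Figure D2:**
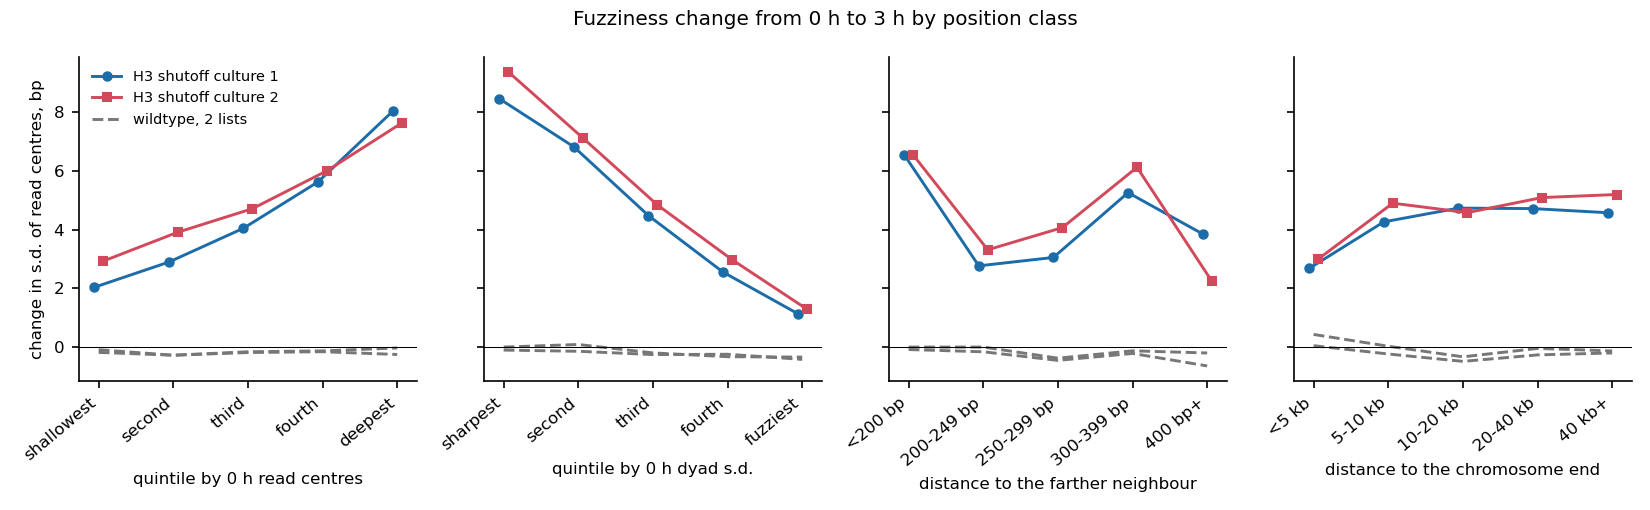
Median change in the s.d. of read centres within 73 bp of a fixed centre, 3 h minus 0 h in bp (y axis), in the same classes (x axis). Points are the 2 H3 shutoff cultures and dashed lines the wildtype pair on the 2 lists. The rise goes from 8.47 and 9.38 bp in the sharpest quintile to 1.14 and 1.30 bp in the fuzziest, with wildtype near 0 throughout.

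The mean density of read centres around the sharpest quintile shows both changes at once. At the centre it was 7.14 times the genome mean at 0 h and 2.60 times at 3 h in culture 1, and 6.70 and 3.86 times in culture 2. The neighbouring peaks, 130 to 220 bp away, fell from 3.21 to 1.53 and from 2.98 to 1.93. The troughs 50 to 120 bp from the centre, where the linker lies, rose from 0.253 to 0.597 and from 0.185 to 0.555. Peaks fell and troughs filled in both cultures. In wildtype, on the list of replicate 2, the centre went from 7.30 to 8.11 and the trough from 0.0686 to 0.0827. Around the fuzziest quintile the centre went from 1.97 to 1.64 in culture 1 and from 1.79 to 1.75 in culture 2, and the troughs from 0.715 to 0.883 and from 0.730 to 0.842.

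**Figure D3:**
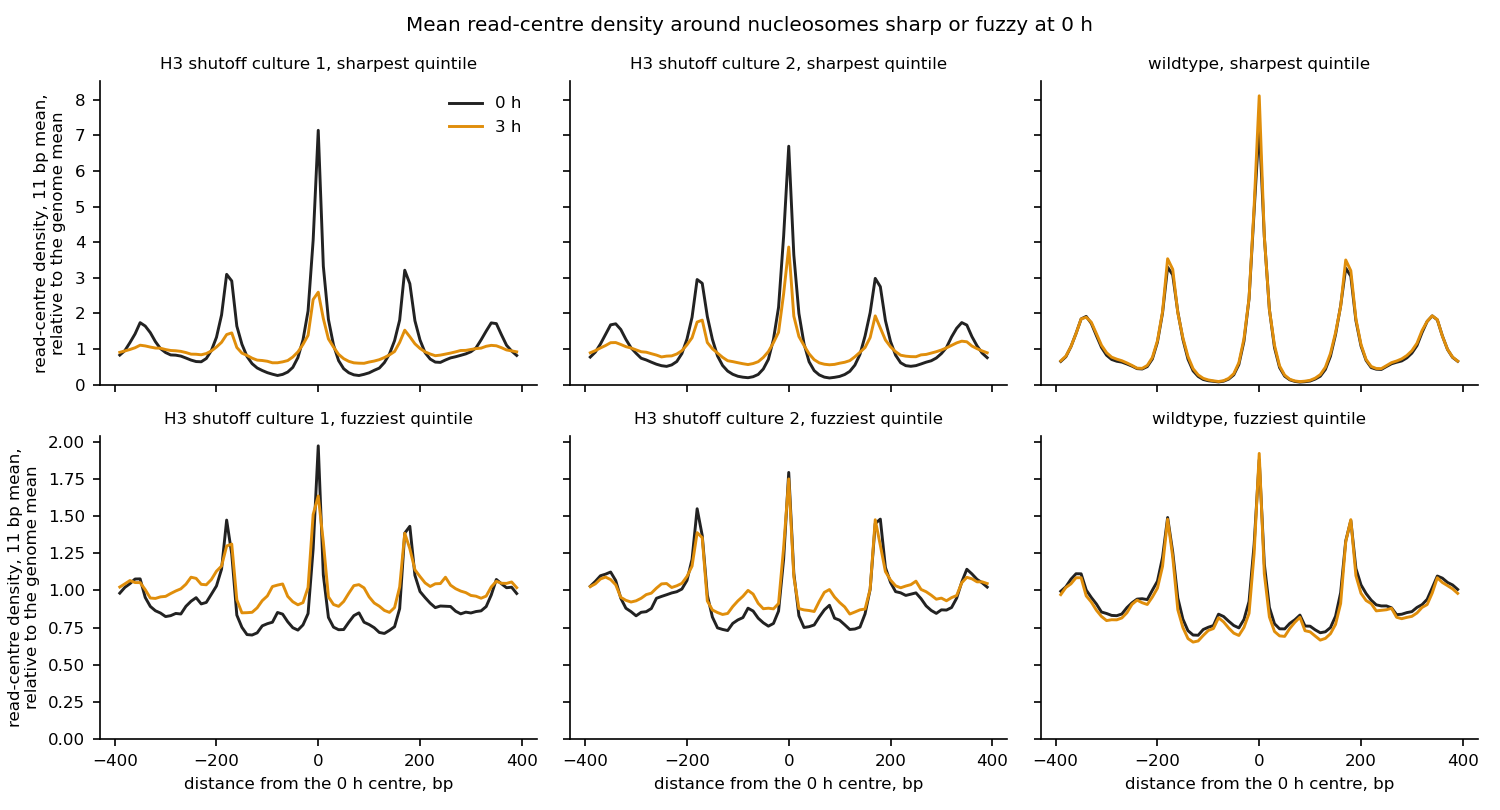
Mean density of read centres, averaged over 11 bp and relative to the genome mean (y axis, from 0, a separate scale for each row) by distance from the 0 h centre (x axis, bp), for the sharpest (top) and fuzziest (bottom) quintile, at 0 h (black) and 3 h (orange). Columns are the 2 H3 shutoff cultures and wildtype. In the sharpest quintile the central peak falls from 7.14 to 2.60 and from 6.70 to 3.86 in H3 shutoff and not in wildtype.

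Called centres moved further at 3 h where nucleosomes were shallow or fuzzy at 0 h. The median shift was 10 bp in culture 1 and 8 bp in culture 2, against 3 bp in wildtype on both lists. It was 7 and 5 bp in the deepest quintile and 12 and 15 bp in the shallowest. In the sharpest quintile it was also 7 and 5 bp, and in the fuzziest 12 and 17 bp. Wildtype had the same order, with 2 bp in the sharpest and deepest quintiles, 6 bp in the shallowest and 6 and 7 bp in the fuzziest. Deepest minus shallowest was -7.5 ± 3.54 bp (SD, n = 2 cultures), against -4 bp on both lists in wildtype and -4 and -3 bp between replicates, and culture 1 (-5 bp) lay within 1 bp of wildtype. Shifts exist only for nucleosomes called at both times, which were 9182 of 10492 sharpest nucleosomes in culture 1 and 9579 of 10856 in culture 2, but 6061 of 10492 and 5396 of 10855 fuzziest. Of the sharpest called at both times, 24.4% and 16.6% moved by at least 20 bp, against 5.23% and 4.96% in wildtype. Between the replicates, classed by the wildtype list, that share was 4.24% at 0 h but 16.1% at 3 h, so culture 2 moved about as often as the 3 h replicates differed from each other. Many listed nucleosomes had no 0 h call in the measured culture itself (9882 and 10161 sharpest and 6913 and 6506 fuzziest had one). Of those that did, a 3 h call within 80 bp was found for 92.9% and 94.3% of the sharpest and for 87.7% and 82.9% of the fuzziest. These shares were 96.4% and 96.2%, and 83.8% and 84.1%, in wildtype.

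The distance to the next called centre gave a smaller and uneven split. By the wider of the distances to its 2 neighbours, a nucleosome closely flanked on both sides (under 200 bp) lost the most, with medians of -0.33 and -0.28. Those with 200 to 250 bp (upper limits are excluded throughout) stood at -0.09 and -0.02, and those with 250 to 300 bp at 0.00 and -0.03. At 300 to 400 bp the medians were lower again, at -0.18 and -0.23. For 400 bp or more the cultures differed, at -0.20 over 1041 nucleosomes and 0.00 over 477. Nucleosomes with a neighbour at 300 bp or more minus those under 200 bp were 0.15 and 0.06, or 0.10 ± 0.07 (SD, n = 2 cultures), against 0.00 and 0.01 in wildtype and 0.06 and -0.05 between replicates, so in culture 2 it was about as large as between replicates at 0 h. With centres from the 3 h lists the mean turned to -0.0029, so the direction of this contrast depends on the list. The classes differed in sharpness too: the median 0 h s.d. was 30.0 and 29.0 bp under 200 bp and 32.8 and 31.8 bp at 250 to 300 bp. They differed in depth as well, with median 0 h counts of 57 and 60 under 200 bp and 46 and 49 at 250 to 300 bp. Within fuzziness quintiles, under 200 bp minus 250 to 300 bp ran from -0.29 to -0.04 in culture 1 and from -0.18 to -0.08 in culture 2, and from -0.04 to -0.0043 in wildtype. The distance classes were not compared within depth quintiles, so the part of depth in this split was not tested.

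Fuzziness followed the same zigzag. The median rise was 6.55 bp in both cultures under 200 bp, 2.77 and 3.32 bp at 200 to 250 bp, 3.05 and 4.07 bp at 250 to 300 bp, 5.26 and 6.13 bp at 300 to 400 bp, and 3.85 and 2.26 bp at 400 bp or more. Closely packed nucleosomes and those with a neighbour at 300 to 400 bp broadened more than the classes between, but were also sharper and deeper at 0 h. Within fuzziness quintiles, under 200 bp minus 250 to 300 bp ran from 1.888 to 3.418 bp in culture 1. It ran from 0.452 to 1.402 bp in culture 2, and in wildtype from 0.147 to 0.438 bp and from -0.017 to 0.513 bp on the 2 lists. The class at 300 to 400 bp was not compared within quintiles, and no distance class was compared within depth quintiles. The median shift hardly differed among the classes, at 8 to 10 bp in culture 1 and 7 to 10 bp in culture 2, and wide minus close was 0 and 2 bp.

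Read centres midway between neighbours were counted next, in the central 50 bp of each interval between neighbouring 0 h centres. In the closely spaced intervals (under 200 bp, 26575 in culture 1 and 29107 in culture 2) this window is centred on the linker but also covers nucleosome edges. A read centre there marks a dyad that lies midway, so broadened or shifted nucleosomes count too and were not separated. The window held 10.9 read centres at 0 h and 18.6 at 3 h in culture 1, and 10.7 and 16.9 in culture 2, log2 changes of 0.77 and 0.65. On the flanking centres the counts in 50 bp fell, from 46.9 to 31.2 and from 47.2 to 33.5. The midway count thus went from 23.3% to 59.7% of that on the centre in culture 1 and from 22.7% to 50.5% in culture 2. In wildtype it was 17.0% and 16.7% on the list of replicate 1, and 15.0% and 15.2% on that of replicate 2, at 0 h and 3 h. Between the H3 shutoff replicates the midway count differed by -0.07 on the log2 scale at either time, far less than the change with time.

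Counting each distinct interval once (done for each distance after seeing the data), the midway count under 200 bp still rose, by 0.64 and 0.73 on the log2 scale. On the flanking centres the change was then -0.17 and -0.01. Reads of one library were extended to one length, so each position holds at most 1 distinct interval. Such counts therefore level off where read centres are dense.

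Intervals of 300 to 400 bp were not empty: midway they held 23.8 and 25.8 read centres at 0 h, 51.5% and 53.1% of the count on the flanking centre (the calling procedure places no centre within one protected length of another). At 3 h they held 17.7 and 19.7, log2 changes of -0.43 and -0.39, close to those on the flanking centres (-0.49 and -0.48). Counting each distinct interval once, these changes were -0.17 and -0.0087. Over all intervals of 300 bp or more the mean was then -0.09 ± 0.12 (SD, n = 2 cultures) instead of -0.41 ± 0.03. Counted in this way, which levels off in dense windows, the fall was smaller than its spread. Intervals of 400 bp or more were nearly free of read centres at both times, with 3.08 and 2.47 in culture 1 (530 intervals) and 1.37 and 1.68 in culture 2 (250 intervals), against 0.90 to 1.31 in wildtype. The H3 shutoff replicates differed there by -1.32 at 0 h, so no change could be read from them. The rise midway was thus largest in intervals under 200 bp, was smaller at 200 to 250 bp (0.41 in both cultures), and was 0.05 and 0.22 at 250 to 300 bp.

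**Figure D4:**
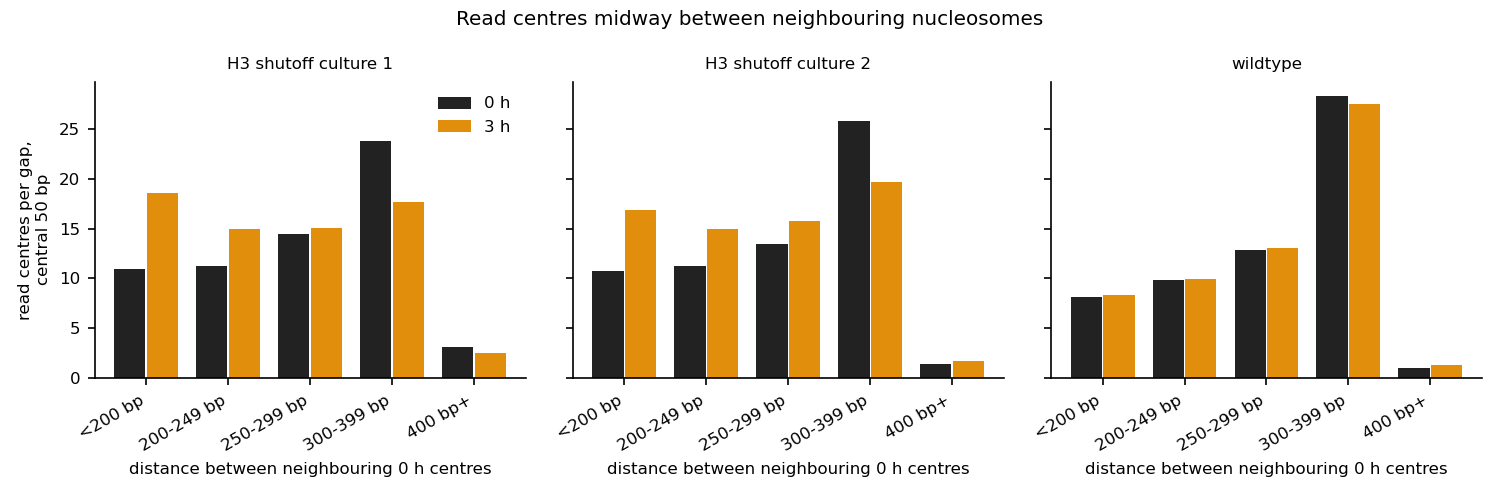
Mean number of read centres in the central 50 bp between neighbouring 0 h centres (y axis, from 0) by the distance between them (x axis), at 0 h (black) and 3 h (orange), in the 2 H3 shutoff cultures and wildtype. Under 200 bp the bars rise from 10.9 to 18.6 and from 10.7 to 16.9, at 300 to 400 bp they fall from 23.8 to 17.7 and from 25.8 to 19.7, and in wildtype both stay in place.

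Moved centres lay more often on the side of the farther neighbour where that neighbour was far away. Among nucleosomes that moved by at least 10 bp and whose neighbours lay at distances at least 50 bp apart, 53.3% of 10301 in culture 1 and 53.9% of 8994 in culture 2 moved toward the farther neighbour. Where that neighbour was 300 bp or more away the share was 58.0% of 5876 and 58.0% of 4505, and at 250 to 300 bp it was 47.9% and 49.7%. In wildtype the shares at 300 bp or more were 54.4% and 51.6%, and between H3 shutoff replicates 49.1% at 0 h and 50.5% at 3 h. With the farther neighbour under 250 bp away, the share was 44.3% of 1110 in culture 1 and 50.5% of 1251 in culture 2. In that class wildtype had 50.0% and 50.8%. The replicates had 52.2% of 519 at 0 h and 57.4% of 580 at 3 h, so in this smaller class replicates alone came close to 58.0%. With neighbours taken from the culture's own 0 h list, the share at 300 bp or more was 56.6% in culture 1 and 54.3% in culture 2. On the list of replicate 1, cultures 1 and 2 thus had 56.6% and 58.0%, against 54.4% in wildtype. On that of replicate 2 they had 58.0% and 54.3%, against 51.6%. Both cultures lay above wildtype on either list, but the size of the excess depended on the list and was not tested.

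Toward chromosome ends the change was uneven and small. Within 20 kb of an end, the median change minus that of the rest was -0.12 and -0.04, or -0.08 ± 0.06 (SD, n = 2 cultures), against 0.02 and 0.05 in wildtype and -0.08 and -0.01 between replicates, so the mean was about as large as the gap between the 0 h replicates. By distance, the medians were -0.02 and -0.10 within 5 kb (617 and 639 nucleosomes), -0.30 and -0.22 at 5 to 10 kb, -0.38 and -0.22 at 10 to 20 kb, -0.24 and -0.18 at 20 to 40 kb and -0.16 and -0.15 beyond. The lowest values lay 5 to 20 kb from the end in both cultures, and the last 5 kb did not share them. The last 5 kb also held the fewest distinct intervals, 31.6% and 28.3% of reads at 0 h, and broadened least, by 2.68 and 3.00 bp against 4.58 and 5.20 bp beyond 40 kb. Reads of the repeated sequences near ends cannot be assigned to one end with certainty. Within depth quintiles, 5 to 20 kb minus 40 kb or more was below 0 in all 5 quintiles of culture 1 (-0.37 to -0.01) and in the 2 shallowest of culture 2 (-0.13 and -0.06, with 0.02 to 0.07 in the others).

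The 32 single ends, taken from 5 to 20 kb, did not move together. Relative to the median of all nucleosomes, 25 ends lay lower in culture 1 and 18 in culture 2, with 16 lower and 5 higher in both. In wildtype 8 lay lower on either list. The left end of chromosome 11 was lowest in culture 1 (-0.64, and -0.24 in culture 2), and the left end of chromosome 4 was lowest in culture 2 (-0.33, and -0.39 in culture 1). The right end of chromosome 8 was highest in both, at 0.32 and 0.22. The values of these ends in wildtype were 0.09 and 0.05, -0.03 and 0.02, and 0.02 and 0.05. Over all ends the values ran from -0.64 to 0.32 in culture 1 and from -0.33 to 0.22 in culture 2, with medians of -0.16 and -0.05, so single ends differed from each other by more than their median differed from 0.

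**Figure D5:**
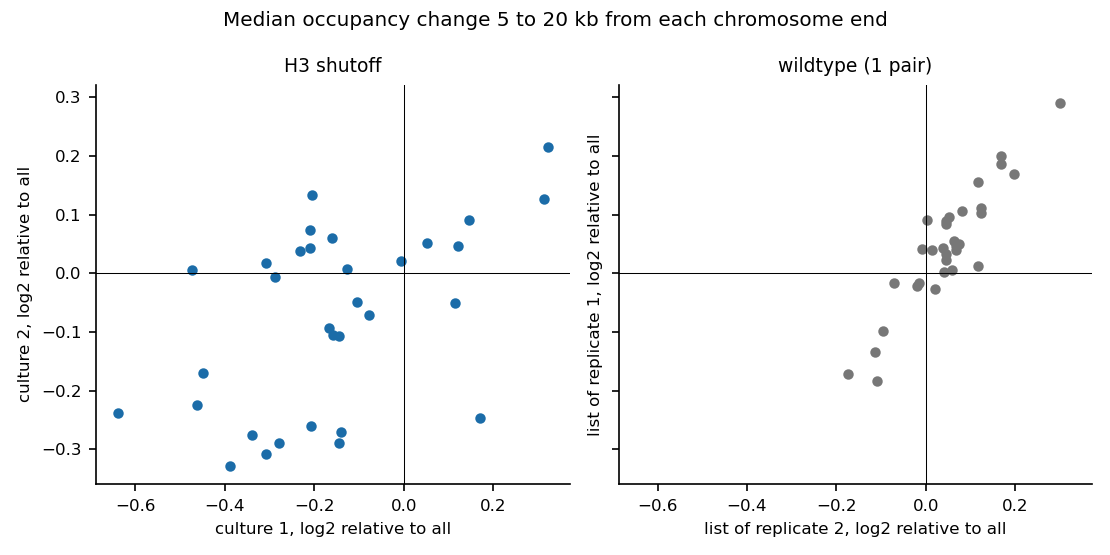
Median occupancy change 5 to 20 kb from each of the 32 chromosome ends, log2 relative to the median of all nucleosomes. The left panel plots H3 shutoff culture 1 (x axis) against culture 2 (y axis), with 16 ends below 0 in both and 5 above 0 in both, and the right panel plots the single wildtype pair on the 2 lists, which shares its reads between the axes.

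To ask which single nucleosomes changed beyond the spread of the libraries, counts at 37718 nucleosomes called in both 0 h lists within 20 bp were tested with edgeR (quasi-likelihood test, TMM scaling, culture as a block, Benjamini-Hochberg adjusted p under 0.05). Calls made up 2.13% lower and 3.03% higher over all nucleosomes tested, and TMM scaling set the median change to 0.01. The 0 h counts enter both this test and the 0 h depth classes, so calls were first split by the mean of all 4 libraries. In the deepest quintile of that mean, 555 of 7483 (7.42%) were lower and 92 (1.23%) higher. In the shallowest quintile, 7 of 7496 (0.0934%) were lower and 218 (2.91%) higher. The deepest quintile thus held more lower than higher calls, while the shallowest held more higher ones, as all nucleosomes tested did. The higher share of the shallowest lay near the 3.03% over all nucleosomes, and the largest was 4.64%, in the second quintile. By sharpness, which shares the 0 h libraries with the test, 530 of 7547 sharpest nucleosomes were lower (7.02%) and 51 higher (0.676%), and 6 of 7539 fuzziest were lower (0.0796%) and 507 higher (6.73%). Closely flanked nucleosomes (under 200 bp) had 271 lower and 111 higher calls of 8067 (3.36% and 1.38%), and those at 250 to 300 bp 218 and 458 of 11019 (1.98% and 4.16%). Within 5 kb of an end, 4 of 413 were lower and 26 higher (0.969% and 6.30%), and at 10 to 20 kb 35 of 995 were lower and 14 higher (3.52% and 1.41%).

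These counts depend on the model. Without the block for culture there were 373 lower and 558 higher calls instead of 803 and 1143, with library totals in place of TMM there were 4899 and 508 around a median change of -0.29, and DESeq2 called 0 (901 and 999 at an unadjusted p under 0.05, against 3704 and 4135 in edgeR). In fits without the block that left out 1 library, edgeR called 0 nucleosomes without the 3 h library of culture 1 (2181 lower and 2280 higher at an unadjusted p under 0.05). Without the 3 h library of culture 2 there were 43 and 143, without the 0 h library of culture 1 there were 1200 and 1779, and without that of culture 2 there were 2126 and 2343. The block leaves 1 residual degree of freedom.

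The pair of libraries in each culture was also compared by a binomial test, which compares libraries and not conditions. With a Bonferroni-corrected p under 0.01, 4.93% of nucleosomes were reduced and 0.684% retained (higher than an even split gives) in culture 1, and 2.86% and 0.797% in culture 2. In wildtype 0.35% and 0.382% were reduced and 0.934% and 0.774% retained on the 2 lists. Of the deepest quintile, 1975 of 10357 (19.1%) and 1247 of 10586 (11.8%) were reduced, and of the shallowest 69 of 10737 (0.643%) and 4 of 10799 (0.0370%). Of the sharpest, 1684 of 10423 (16.2%) and 1055 of 10740 (9.82%) were reduced, and of the fuzziest 32 of 10424 (0.307%) and 15 of 10558 (0.142%). The reduced share rose with depth and with sharpness in both cultures, and a deep nucleosome needs a smaller fold change to be called in this test. Retained shares by depth and by sharpness did not agree between cultures. In culture 1 they were 1.11% in the shallowest and 0.357% in the deepest quintile, and 0.173% in the sharpest and 1.30% in the fuzziest. In culture 2 they ran the other way, at 0.426% in the shallowest and 1.44% in the deepest, and 0.885% in the sharpest and 0.559% in the fuzziest. In wildtype the deepest quintile was more often retained (3.01% and 1.46%) than reduced (0.756% and 1.00%). Near chromosome ends the reduced shares differed between cultures: within 5 kb, 3.05% were reduced in culture 1 and 5.56% in culture 2, and beyond 40 kb 4.81% and 2.75%. The edgeR lower calls (0.969% within 5 kb, 2.09% beyond 40 kb) had the order of culture 1 and not that of culture 2. Retained shares were larger within 5 kb in both cultures, at 4.58% and 1.64% against 0.641% and 0.766% beyond 40 kb, the order of the edgeR higher calls. Between the replicates, classed by the wildtype list, they were 3.57% against 0.173% at 0 h and 0.168% against 0.0414% at 3 h. An excess within 5 kb thus also separated the 0 h libraries, without depletion. In wildtype the retained shares were 0.672% and 0.684% within 5 kb and 0.936% and 0.773% beyond 40 kb. Closely flanked nucleosomes (under 200 bp) had the largest reduced share of the distance classes in both cultures, at 6.78% and 4.40%, with 3.82% and 1.65% at 200 to 250 bp.

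Single nucleosomes show the extremes of the classes among the edgeR calls, not their typical members. The largest fall among the deepest and also among the sharpest was at chr2:160100-160200, where the count went from 199 to 34 in culture 1 and from 198 to 53 in culture 2, with 243 and 265 in wildtype at 0 h and 3 h. Both 3 h counts lay below both 0 h counts, and the edgeR log2 change was -1.91 (adjusted p = 7.38e-06). Against this stood the largest rise among the deepest, at chr12:1072340-1072440 and 5.78 kb from the right end, from 201 to 400 and from 202 to 412 (wildtype 166 and 144, log2 change 1.31, edgeR adjusted p = 0.0280). By depth at 0 h, which shares its counts with the test, 11 of the 7492 deepest nucleosomes (0.147%) were called higher, and this was one of them. The largest rise in the shallowest quintile by 0 h depth, also the largest among the fuzziest, was at chr12:1014070-1014170, from 9 to 48 and from 9 to 36 (wildtype 4 and 3, log2 change 2.49, edgeR adjusted p = 0.000687).

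Among the sharpest nucleosomes the largest rise, at chr4:558180-558280, rested on culture 2. The count went from 37 to 53 in culture 1 and from 11 to 83 in culture 2, and it rose in wildtype too, from 4 to 24 (edgeR log2 change 1.85, adjusted p = 0.000528). The largest fall among the fuzziest, at chr14:354642-354742, was from 135 to 38 and from 122 to 52, with a fall from 190 to 93 in wildtype (log2 change -1.22, edgeR adjusted p = 0.00488). Both of these extremes were thus shared in direction with wildtype, unlike the fall on chromosome 2.

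Beside a neighbour at 300 bp or more, the largest fall was at chr12:664984-665084, from 217 to 35 and from 146 to 59, with 161 in wildtype at both times (log2 change -1.64, edgeR adjusted p = 0.000158). The largest rise in that class and within 20 kb of an end was at chr6:5220-5320, 5.27 kb from the left end, from 36 to 92 and from 14 to 103, with 5 and 7 in wildtype (log2 change 2.31, edgeR adjusted p = 1.14e-07). Between close neighbours, the largest fall was at chr14:310120-310220, from 43 to 9 and from 41 to 13 (wildtype 34 and 29), and the largest rise at chr3:227916-228016, from 11 to 36 and from 11 to 34 (wildtype 19 and 13). The edgeR adjusted p was 0.0338 and 0.0121. The largest fall within 20 kb of an end was at chr7:1076724-1076824, 14.2 kb from the right end, from 164 to 43 and from 161 to 56, against 179 and 146 in wildtype (log2 change -1.42, edgeR adjusted p = 0.000706). In each of these 5 the 3 h counts of both cultures lay apart from both 0 h counts. The choice of named nucleosomes by edgeR p and shared direction favours such a separation, also on chromosome 2, so it adds no support. Coordinates are of the sacCer1 build as the files give them, and genes at these places were not looked up, since no annotation of that build was used here.

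The share of distinct intervals moved with the classes as the occupancy change did. In the sharpest quintile it rose from 34.8% to 50.3% of reads in culture 1 and from 34.0% to 51.4% in culture 2, and in the fuzziest from 59.6% to 60.1% and from 59.6% to 67.2%. With at most 1 read per identical interval, deepest minus shallowest was -0.26 and sharpest minus fuzziest -0.26 in occupancy (means of 2 cultures), and 2.93 and 5.53 bp in fuzziness. With all reads they were -0.76 and -0.72, and 5.35 and 7.70 bp. All 4 kept their direction, and the occupancy contrasts shrank most. With one read length per library, the 101 positions within 50 bp of a centre hold at most 101 distinct intervals. This count thus levels off in deep or sharp piles, and the smaller contrasts do not show how much of the change lay in repeated reads. The cause was not tested.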

How the data were processed

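Single-end MNase-seq gave 6 libraries, H3 shutoff at 0 h and 3 h (n = 2 each) and wildtype (n = 1 each), grouped by their titles. Per the methods, the authors aligned reads to sacCer1 with Bowtie 0.12.6, extended them to the average fragment size of the library, removed ribosomal DNA and drew equal numbers of reads at random. The deposited intervals carry no strand. Per nucleosome, the deposited lists hold the raw count of read centres within 50 bp, which a recount from the intervals matched for at least 99.996% of nucleosomes, and an s.d. per nucleosome. The reads have no molecular identifiers. Depth was 5000001 reads in every library, and the median nucleosome held 52 to 59 read centres, so single shallow nucleosomes are imprecise.

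Classes were quintiles of the listed count and s.d., fixed distances to the farther neighbour, and fixed distances to the chromosome end (the last base covered by reads). Fuzziness needed at least 10 read centres at both times. A shift needed a 0 h call within 50 bp of the listed centre and a 3 h call that was its mutual nearest within 80 bp. edgeR 4.0.16 (glmQLFit, glmQLFTest, R 4.3.3) tested counts with a mean of at least 10, with DESeq2 1.42.0 as an alternative. Other steps used Python 3.11.15 with numpy 2.4.6, pandas 2.3.3 and scipy 1.17.1, and the computations were tested on simulated data. Culture was a block because both times came from one culture. Deviations of same-numbered libraries from their group means correlated at r = -0.09, so the block rests on the design alone. Where nothing but the culture separates replicates, p-values measure the spread between these 4 libraries.

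Named nucleosomes had the largest mean fall or rise per extreme class among those with an edgeR adjusted p under 0.05, the same direction in both cultures and a mean of at least 20 read centres. The members, classes and lists were chosen with earlier results of these data known. Alternatives were another source of the classes, deeper lists, 1 read per identical interval, other pseudocounts, windows, measures and scalings, and leaving out libraries. A further deposited fraction per nucleosome, whose definition the files do not give, was not used here.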

Additional observations from a re-analysis of the deposited data

Results flagged for a closer look

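The occupancy contrast had opposite signs in H3 shutoff and wildtype for 3 of the splits, and the difference between the strains was not tested, since wildtype has 1 pair. Deepest minus shallowest was -0.76 in H3 shutoff (mean of 2 cultures, both negative) and 0.23 and 0.02 in wildtype on the 2 lists. Sharpest minus fuzziest was -0.72 against 0.17 and 0.16. Within 20 kb of a chromosome end minus the rest was -0.080 against 0.02 and 0.05.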

How the results depend on the processing

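In fits with no replicate block, edgeR called 373 nucleosomes lower and 558 higher. With library totals it called 4899 and 508, with DESeq2 0 and 0, and with a window of 73 bp (chosen after seeing the data) 705 higher. Leaving out 1 library gave from 0 to 2126 lower (43 without the 3 h library of culture 2) and from 0 to 2343 higher (1779 without the 0 h library of culture 1, 143 without the 3 h library of culture 2).

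Classes from the same culture gave -1.12 for occupancy by depth, 9.33 bp for fuzziness by fuzziness, 52.5% of shifts toward the wider side and -0.29 for read centres in intervals of 300 bp or more (-0.41 as reported, with 53.6% of shifts). Such classes share counting error with the change. Classes from wildtype gave -0.89, 9.10 bp and 54.2% for the first 3. With 1 read per identical interval, occupancy by depth was -0.26, by fuzziness -0.26 and by chromosome end -0.018, fuzziness by depth 2.93 bp and by fuzziness 5.53 bp, and read centres in wide intervals -0.089. A 73 bp window gave -0.57 for occupancy by fuzziness. The deposited s.d. gave fuzziness contrasts of 7.43 bp (depth), 11.3 bp (fuzziness) and -0.97 bp (chromosome end). With mean positions, shift contrasts shrank to -2.27 bp (depth) and -1.20 bp (fuzziness), and to -2.07 and -0.43 bp with 1 read per interval as well.

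With centres from the 3 h list (chosen after seeing the data), occupancy was -0.99 by depth and -0.97 by fuzziness, and fuzziness 7.63 bp, 10.8 bp and, by neighbour distance, -0.24 bp. Occupancy by neighbour distance turned to -0.0029, the only reversal among 92 alternatives. The cause of these moves was not tested. No other alternative moved a class contrast by more than 1 SD between cultures, which with 2 cultures is itself imprecise. Limits: occupancy is relative, wildtype has no replicate, nucleosomes of one library are not independent, and the extension length differed between 0 h and 3 h in H3 shutoff only.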

Other observations

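Nucleosomes were also numbered by their order from the nearest interval of 300 to 600 bp between called centres, in the other culture's 0 h list. The first nucleosome broadened by a median of 5.20 bp in culture 1 (18329 nucleosomes) and 6.04 bp in culture 2 (14854). The second broadened by 4.75 and 5.39 bp, the third by 4.17 and 4.76 bp, and those sixth or further by 3.76 and 4.40 bp. At 0 h the first were the sharpest, with a median s.d. of 30.9 and 29.5 bp against 32.9 and 32.1 bp at the sixth or further, and at 3 h the orders lay closer together, at 36.4 and 35.9 bp against 36.8 and 36.5 bp. In wildtype the change was between -0.27 and -0.08 bp at every order on both lists. The occupancy change was -0.18 and -0.22 at the first and -0.13 and -0.10 at the sixth or further.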
